A study of Mus musculus with 2 samples.

Results

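The miR-26 family of the mouse comprises 3 microRNA (miRNA) genes, Mir26a-1, Mir26a-2 and Mir26b, and these were the members taken here, by gene symbol, from the 2202 miRNA genes counted in the series. Small RNA was sequenced from adrenal tissue of 5xFAD/CAST mice, which were adult females of 8 to 10 months. 5xFAD is a transgenic model of Alzheimer's disease in which mutated human genes are driven by a neuronal promoter, and CAST is a wild-derived inbred strain. The transgene status of each sample and the number of animals behind it are not given in the labels. The 2 libraries form 1 group and are called replicates 1 and 2. They came from different biosamples under 1 donor identifier, so spreads measure the difference between these samples, which may be technical. The p-values printed here come from read counts and cover counting error only. With 1 group there was no contrast of genotype or treatment, and the comparisons are those among the 3 genes and between the libraries.

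A miRNA is cut from a hairpin precursor and guides silencing complexes to messenger RNAs, mainly by pairing through its seed, bases 2 to 8 from the 5′ end. Each miR-26 hairpin sits inside a gene of the Ctdsp family of small phosphatases, which act on the tail of RNA polymerase II and on the retinoblastoma protein and serve as corepressors with the neuronal gene silencer REST. The miR-26 miRNAs are known as brakes on the cell cycle and as regulators of Ezh2, the methyltransferase of the Polycomb complex. The host messenger RNAs were not measured here.

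In the mm10 build with the GENCODE M21 annotation, all 3 genes lie on the plus strand, the strand of their hosts, and none overlaps a miRNA gene on the opposite strand. Mir26a-1 (ENSMUSG00000065513.1) spans chr9:119031796-119031885, 90 bases in introns of Ctdspl. Mir26b (ENSMUSG00000065468.1) spans chr1:74394310-74394394, 85 bases in an intron of Ctdsp1. Mir26a-2 (ENSMUSG00000065430.1) spans chr10:126995530-126995613, 84 bases within Ctdsp2. Of these 84 bases, all lie within an intron of the protein-coding transcript that spans most of Ctdsp2. Only 1 base, the last at position 126995613, is exonic, as the first base of the 5′ UTR of a shorter protein-coding transcript and of a retained-intron transcript.

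The mature miRNAs are shown because they decide which reads can be given to a single locus. Sequences are those of RefSeq for GRCm38.p6, in which all 3 members had an entry, with the seed in capitals.
mmu-miR-26a-5p: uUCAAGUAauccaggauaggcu
mmu-miR-26b-5p: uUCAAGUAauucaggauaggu
mmu-miR-26a-1-3p: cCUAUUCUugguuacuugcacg
mmu-miR-26a-2-3p: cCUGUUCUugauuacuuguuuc
mmu-miR-26b-3p: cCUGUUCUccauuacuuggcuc
The 5p miRNAs share the seed UCAAGUA, which in the RefSeq table belonged to these 3 genes and no other. Mir26a-1 and Mir26a-2 encode the same miR-26a-5p of 22 bases. miR-26b-5p has 21 bases and differs from it, over 21 compared bases counted from the 5′ end, by the substitutions C11U and C21U. On the 3p arm the 3 genes differ. From miR-26a-1-3p to miR-26a-2-3p there are 6 differences in 22 bases, of which A4G lies in the seed. miR-26a-2-3p and miR-26b-3p keep 1 seed, CUGUUCU, and differ at 4 positions outside it (U9C, G10C, U19G and U20C). That 3p seed was found in 4 genes of the table, and the other two, Mir6932 and Mir7039, had 2 reads each over both libraries.

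The hairpins are shown with their mature arms in capitals, to place the part that the Mir26a loci have in common.
Mir26a-1: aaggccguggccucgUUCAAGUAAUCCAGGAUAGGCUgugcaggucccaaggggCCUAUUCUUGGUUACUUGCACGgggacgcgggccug
Mir26a-2: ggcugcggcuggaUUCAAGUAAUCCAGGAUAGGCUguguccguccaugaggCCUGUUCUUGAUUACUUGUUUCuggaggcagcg
Mir26b: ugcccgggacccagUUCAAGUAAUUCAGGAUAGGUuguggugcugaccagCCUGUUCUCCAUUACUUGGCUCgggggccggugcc
The longest stretch shared by the Mir26a hairpins was 25 bases, at positions 16 to 40 of Mir26a-1 and 14 to 38 of Mir26a-2. It starts with the first base of miR-26a-5p and runs 3 bases past its end. A read of miR-26a-5p therefore matches both loci unless it begins before the mature start or runs more than 3 bases past the mature end, whereas reads of the 3p arms can be told apart. Of the 20-base windows along each hairpin, 6 of 71 in Mir26a-1 and 6 of 65 in Mir26a-2 occurred in another annotated miRNA gene, and in each case that gene was the other Mir26a locus. None of the 66 windows of Mir26b did, nor did any 20-base window of the 3 hairpins occur in a transcript of another gene type. The longest stretch that Mir26b shares with a Mir26a hairpin was 11 bases. These searches covered annotated transcripts on both strands and not the whole genome.

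**Figure D1:**
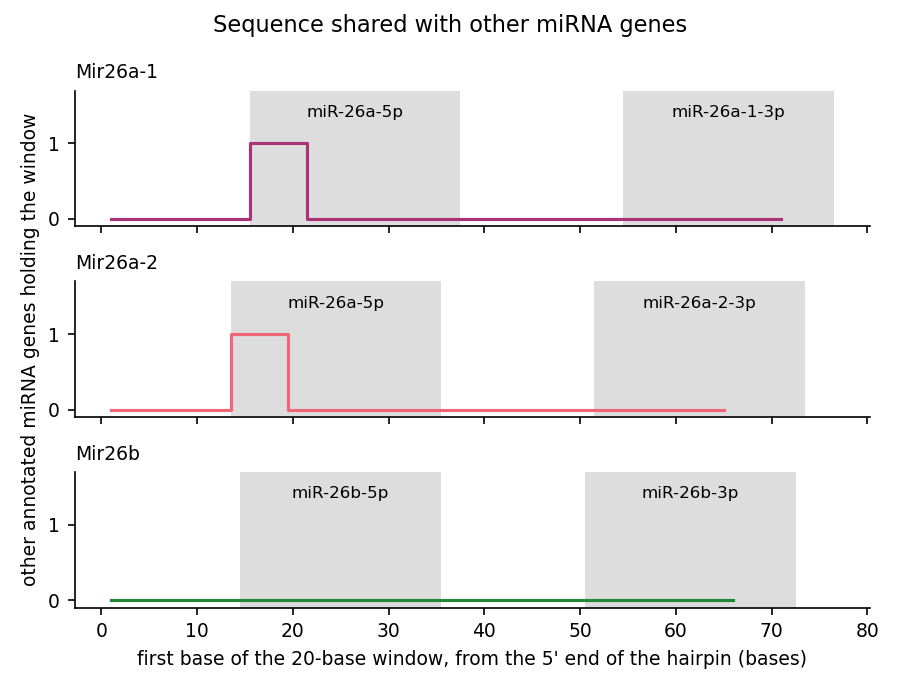
For each hairpin, the number of other annotated miRNA genes that hold the 20-base window (y axis) is plotted against the window's first base in the hairpin (x axis, bases), with the mature arms in grey. The 6 windows at 1 in each Mir26a hairpin begin in the 5p arm, and the line for Mir26b stays at 0.

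The counts are reads per precursor gene and do not separate the arms. The depth was 3635851 reads on miRNA genes in replicate 1 and 6924829 in replicate 2, a ratio of 1.90. CPM stands for the number of reads on a gene among 1000000 miRNA-gene reads, so 0 reads, taken as at most 3, would allow 0.825 and 0.433 CPM. Intervals cover counting error only. They also treat each read as separate, since PCR copies of a molecule cannot be recognised without molecular identifiers. Multimapping reads, kept by the files in an entry apart from the genes, numbered 2454066 and 5165270, or 31.6% and 33.6% of all reads. The share of miR-26a-5p among them is not in the counts, so the levels of the Mir26a loci are those of uniquely placed reads and not of miR-26a. As a check of the tissue, the endocrine-cell miRNA Mir375 stood at 45225 ± 1738 CPM (SD, n = 2), the liver miRNA Mir122 at 93.3 ± 21.5 CPM, and 4 of 5 striated muscle genes had no read. Those 4 genes are numbered copies of the same miRNAs, and reads common to both copies would be multimapping. Their lack of reads therefore does not show that muscle was absent. No miRNA in the list of markers defines the adrenal gland alone. In bulk tissue, fewer cells of a type and less RNA per cell cannot be told apart.

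Mir26b held nearly all uniquely placed reads of the family, and the Mir26a loci together held a small share that differed between the libraries. Mir26b had 76571 reads in replicate 1 and 147325 in replicate 2, which is 21060 CPM (exact Clopper-Pearson 95% interval 20913 to 21208) and 21275 CPM (21167 to 21383). Its mean of 21167 ± 152 CPM (SD, n = 2) placed it at rank 14 of the 2202 genes, at rank 17 in replicate 1 and 14 in replicate 2. The libraries were close for Mir26b, at a ratio of 1.01, though their counting intervals overlap only in part.

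Mir26a-2 had 108 reads in replicate 1 and 2416 in replicate 2, which is 29.7 CPM (24.4 to 35.9) and 348.9 CPM (335 to 363). The mean was 189 ± 226 CPM at rank 149, a mean that neither library shows. Replicate 2 was the high library, and the counting intervals of the libraries do not overlap. Mir26a-1 had 14 and 49 reads, which is 3.85 CPM (2.11 to 6.46) and 7.08 CPM (5.23 to 9.35). Its mean was 5.46 ± 2.28 CPM at rank 320, and the intervals of its libraries overlap.

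The order Mir26b, Mir26a-2, Mir26a-1 held in both libraries, with no overlap between any pair of genes. Small RNA reads cover whole molecules, and the hairpins have 84 to 90 bases, so scaling by length kept the order, at 249, 2.25 and 0.0607 mean CPM per base. Together the 3 genes took 2.11% of miRNA-gene reads in replicate 1 (2.09 to 2.12%) and 2.16% in replicate 2 (2.15 to 2.17%). Mir26b made up 99.8% of the family's uniquely placed reads in replicate 1 and 98.4% in replicate 2. Its reads outnumbered those of the Mir26a loci together 628-fold in replicate 1 and 59.8-fold in replicate 2. Reads of miR-26a-5p that match both Mir26a loci are not in these counts. The nearest genes in level were, above Mir26b, Mir23a and Mir143, a miRNA of smooth muscle, at 31681 ± 8382 and 21677 ± 1479 CPM, and below it Mir21a and Mir127 at 20539 ± 10653 and 19717 ± 5813 CPM. The libraries of Mir143, Mir21a and Mir127 span the level of Mir26b, so Mir26b does not stand apart from these neighbors, whereas both values of Mir23a lie above it.

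**Figure D2:**
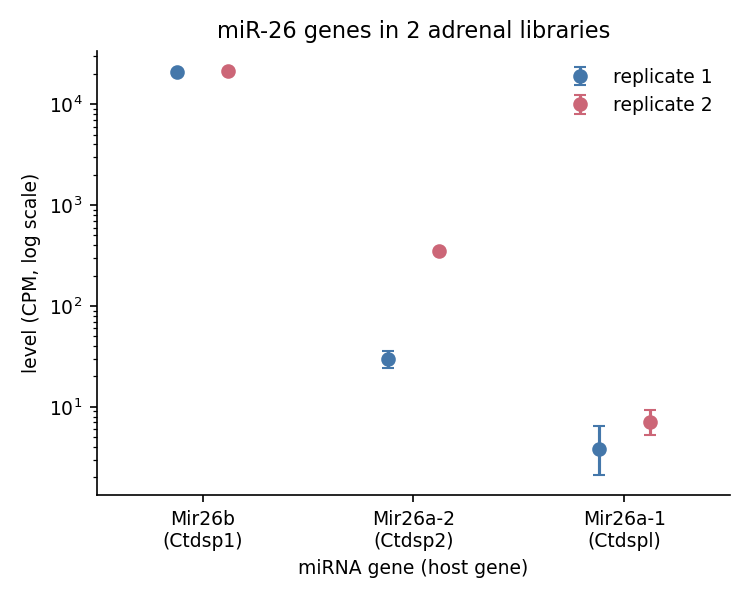
Points give the level of each miR-26 gene in CPM (log scale) in each library, with exact Clopper-Pearson 95% intervals as bars; host genes are in parentheses. The points of Mir26b lie close together at 21060 and 21275 CPM, those of Mir26a-2 are apart at 29.7 and 348.9 CPM, and those of Mir26a-1 are lowest at 3.85 and 7.08 CPM.

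The spread of Mir26b was small for a gene at its level. Its coefficient of variation over the 2 libraries was 0.718%, against a median of 12.1% over the 25 most abundant genes, which range from 0.718 to 60.3%. With 2 libraries such a value is imprecise, and it rests on scaling by the plain total. TMM scaling, which sets the bulk of genes equal, moved the log2 ratio of Mir26b from 0.01 to 0.21.

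The remaining question was how far each gene differed between the libraries. Mir26a-2 was 11.7-fold higher in replicate 2 in CPM (exact 95% interval 9.68 to 14.4), a log2 ratio of 3.55. In Fisher's exact test (two-sided), adjusted by Benjamini-Hochberg over the 455 genes with at least 10 reads in both libraries together, its p was 6.71e-300. Mir26a-1 was 1.84-fold apart (0.998 to 3.60), a log2 ratio of 0.84, and missed the threshold of 0.05 in the same test (Fisher's exact, adjusted p = 0.0805), though it passed under TMM scaling (log2 ratio 1.04, exact binomial test, adjusted p = 0.0260) and DESeq2 size factors (1.02, adjusted p = 0.0265). Mir26b was 1.01-fold higher in replicate 2 (1.00 to 1.02; Fisher's exact, adjusted p = 0.0411).

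Thus 2 of 3 members passed Fisher's exact test, where 52.5% of all tested genes did. By direction, 16.9% of tested genes were called higher and 35.6% lower in replicate 2. This test covers counting error and compares these libraries, not conditions, and the genes were proposed with the difference of Mir26a-2 known. The log2 ratio of Mir26b, 0.01, changed sign with the scaling. It was -0.01 and uncalled in the count column of both strands (Fisher's exact, adjusted p = 0.225) and -0.04 and called lower with all reads as library size (adjusted p = 4.42e-10). TMM and DESeq2 size factors gave 0.21 and 0.19, both called higher (exact binomial test, adjusted p = 3.99e-246 and 1.62e-195). Over all tested genes the median log2 ratio was -0.18, and TMM scaling moved it by 0.20. Relative to that median, Mir26a-2 stood at 3.73, Mir26a-1 at 1.02 and Mir26b at 0.19, on the log2 scale.

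Markers of other cells differed between the libraries in both directions, by their share of reads in replicates 1 and 2. Red cell markers took 0.0427 and 0.0175%, endothelium 5.67 and 4.15%, smooth muscle 2.39 and 2.15%, and kidney and intestine 0.00558 and 0.00328%. Striated muscle markers took 0.000275 and 8.66e-05%, all from 10 and 6 reads of Mir206, which was not called (Fisher's exact test, adjusted p = 0.0575). Endocrine markers took 5.06 and 4.83%, mostly reads of Mir375. Fisher's exact test called Mir375 lower (log2 ratio -0.08) and Mir7b higher (0.06), and left Mir7-1 uncalled (0.09). The liver marker Mir122 took 0.00781 and 0.0108%, the only one of these 7 sets with a larger share in replicate 2. These shares rest on the plain total, under which the median log2 ratio of all tested genes was -0.18. TMM scaling moved that median by 0.20, so the direction of small differences depends on the scaling. The part of the marker genes in the difference of Mir26a-2 was not tested.

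Among the 177 genes whose mean level reached 100 CPM, Mir26a-2, which was proposed with this difference known, had the largest log2 ratio in either direction. The next in its direction were Mir674 at 2.13, Mir298 at 1.90, Mir31 at 1.72 and Mir1839 at 1.65, and the median absolute log2 ratio of the 177 genes was 0.33. The lowest were Mir185 at -3.19, Mir129-2 at -2.72, Mir129-1 at -2.45, Mir30e at -1.51 and Mir451a, a red cell miRNA, at -1.34. Among all 455 tested genes, 15.8% were at least 2-fold apart, and 1 gene, Mir7049, had a larger ratio, on 0 and 15 reads (named after its values were seen). The 4 genes nearest to Mir26a-2 in mean level had closer libraries. Mir152 stood at 188 and 208 CPM and Mir668 at 152 and 241 CPM, just above it. Just below it Mir350 stood at 244 and 134 CPM and Mir125b-2 at 187 and 185 CPM. Around Mir26a-1 the values were 6.33 and 4.91 CPM for Mir3057, 4.68 and 6.50 for Mir5113, 4.40 and 6.50 for Mir7083, and 5.78 and 5.05 for Mir363, with none of the 4 called by Fisher's exact test.

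**Figure D3:**
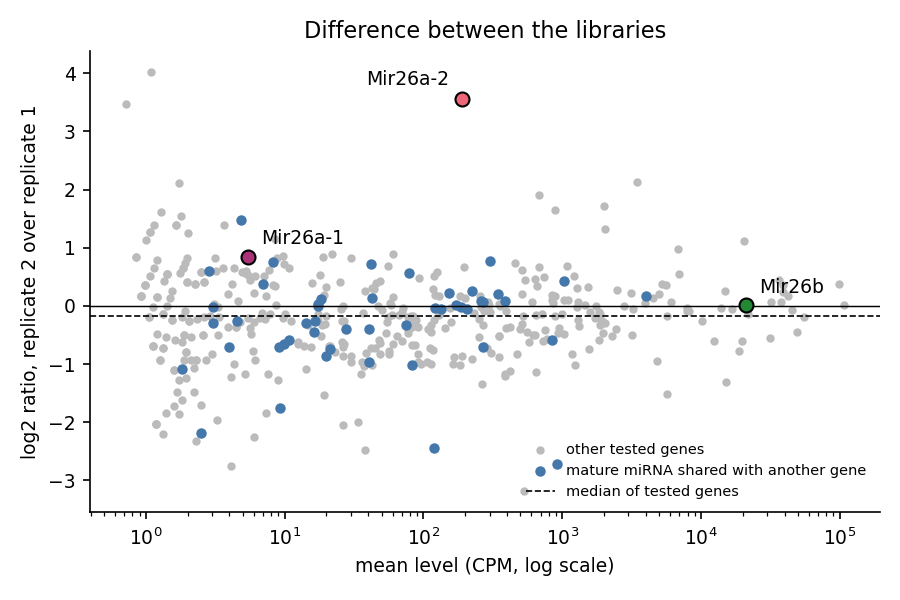
Each point is 1 of 455 tested miRNA genes, with its mean level in CPM (x axis, log scale) and its log2 ratio of replicate 2 over replicate 1 (y axis). Genes matched by symbol in the RefSeq table that share a mature miRNA with another gene are blue. Genes without a match are drawn with the rest, and the dashed line is the median. Mir26a-2 lies at 3.55, Mir26a-1 at 0.84 and Mir26b at 0.01.

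The ratio between the Mir26a loci does not depend on library size. It does contain the difference of Mir26a-2 known beforehand, so its p is not independent of the choice of genes. Mir26a-2 had 7.71 reads for each read of Mir26a-1 in replicate 1 and 49.3 in replicate 2, a change of 6.39-fold (exact 95% interval 3.15 to 12.2; Fisher's exact test, two-sided, p = 6.72e-07, adjusted over 3 gene pairs 1.01e-06). The interval is wide because replicate 1 had 14 reads of Mir26a-1. Mir26a-2 made up 88.5% of the uniquely placed Mir26a reads in replicate 1 (81.5 to 93.6%) and 98.0% in replicate 2 (97.4 to 98.5%). Reads that match both loci are left out, so these shares do not give the origin of miR-26a. Against Mir26b, Mir26a-2 changed 11.6-fold (9.58 to 14.2) and the ratio of Mir26a-1 to Mir26b was 1.82-fold apart (0.988 to 3.57). That interval includes 1 while the p of Fisher's exact test, adjusted over the 3 pairs, was 0.0465, so the call is borderline.

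Other miRNA genes that share a mature miRNA with another gene gave the frame for this change. By symbol, 1018 of the 2202 genes had a mature miRNA in the RefSeq table, and 94 of these, the Mir26a loci included, shared an identical mature miRNA with another gene. Genes without a match by symbol could not be compared, so these genes and their pairs may be incomplete. Of the 94, 46 were detected (48.9%), with 10 or more reads per library, and 2 reached a mean of 1000 CPM (2.13%). Of the 924 genes with no identical mature miRNA, 277 were detected (30.0%) and 67 reached 1000 CPM (7.25%), Mir26b among them. The highest of the 94 was at rank 37. Over the 50 tested genes of the 94, the median log2 ratio was -0.04 and the median absolute log2 ratio 0.41, against -0.18 and 0.47 over all genes tested. Fisher's exact test called 10 higher and 13 lower in replicate 2 and left 27 uncalled, against 77 higher and 162 lower of all 455 genes. TMM scaling gave 19 higher and 10 lower, against 124 and 116 of all 455.

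Both loci of a pair had at least 10 reads in each library in 22 of 60 such pairs. The change of the ratio between the loci was larger for the Mir26a pair than for each of the 21 others, which ranged from 1.01-fold to 2.84-fold with a median of 1.28-fold, 16 of them under 2-fold. The next were Mir199b and Mir199a-2 with 2.84-fold, on counts of 12 to 52 reads, and Mir24-2 and Mir24-1 with 2.43-fold, on 231 to 1407 reads. Mir129-2 and Mir129-1, both lower in replicate 2, had ratios of 7.93 and 6.60. Mirlet7f-2 and Mirlet7f-1 stood at 18.3 and 17.2, and Mir181b-2 and Mir181b-1 at 56.1 and 56.8. These values are descriptions of 2 libraries, and some pairs share a locus. The Mir26a pair was taken up with the difference of Mir26a-2 known, so its first place is not independent of that choice.

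**Figure D4:**
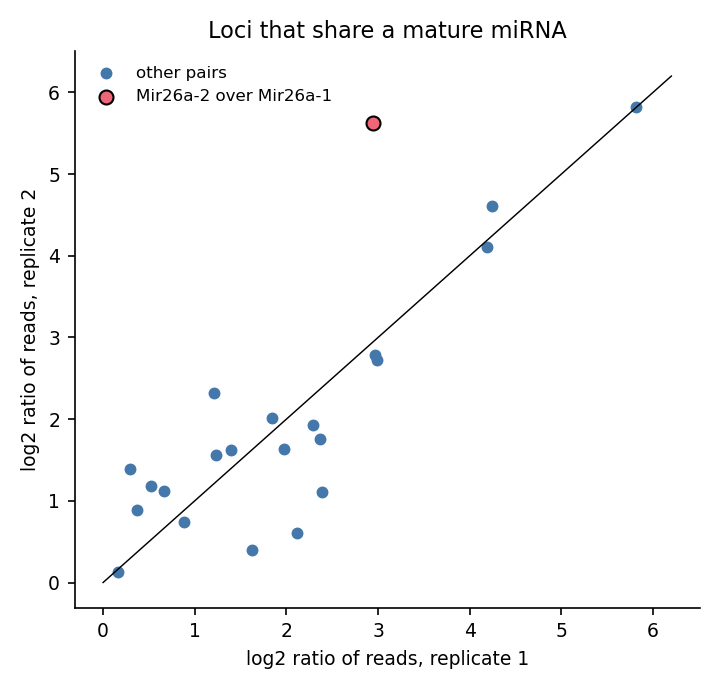
Each point is a pair of loci with an identical mature miRNA, with the log2 ratio of reads of the higher over the lower locus in replicate 1 (x axis) and replicate 2 (y axis); the line marks equal ratios. The Mir26a pair, at 2.95 and 5.62, lies farther from the line than the 21 other pairs.

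A pair of further groups place the family among miRNAs of like function; they were chosen with earlier results of these data known. All 5 listed miRNAs known to target Ezh2, as miR-26 does, were detected, each below Mir26b. Mir214 stood at 731 ± 212 CPM, Mir101b at 574 ± 172 CPM, Mir101a at 352 ± 5.49 CPM and Mir138-1 at 75.2 ± 11.9 CPM (SD, n = 2). Fisher's exact test called 3 of the 5 lower in replicate 2 and none higher, where 35.6% of all tested genes were lower and 16.9% higher. Their median log2 ratio was -0.33, against -0.18 over all genes, and TMM scaling gave 2 lower and 1 higher. All 22 listed miRNAs that restrain passage from G1 into S phase, the let-7, miR-15/16 and miR-34 groups, were detected as well. Together they took 30.6% of reads in replicate 1 and 34.8% in replicate 2, against 2.11% and 2.16% for the miR-26 genes. Multimapping reads are left out of both, so the miR-26 figure lacks reads that match both Mir26a loci. It is not the share of the mature miR-26 miRNAs. Most of the share of the 22 genes was let-7, led by Mirlet7b at 107083 ± 838 CPM and Mirlet7g at 98551 ± 18128 CPM. Mirlet7i followed at 42478 ± 3482 CPM and Mirlet7d at 39277 ± 7008 CPM. Fisher's exact test called 14 of the 22 higher and 6 lower, against the same 16.9% and 35.6% of all genes, with a median log2 ratio of 0.19. Under TMM scaling it was 15 and 5, against 124 and 116 of all 455 genes. In Fisher's exact test most let-7 genes were called higher, while miR-15/16 and miR-34 genes were called in both directions.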

How the data were processed

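Each library has 1 table of raw read counts, deposited by the authors with 3 unnamed columns. Per the deposited notes, the build was mm10 and the annotation GENCODE M21. How reads were trimmed, aligned and counted is not given in the sources used here, nor is the meaning of the columns. From the values, the columns were read as both strands, 1 strand (used here) and the other strand. For the 3 members the both-strand counts equal the strand counts, and the other strand has none. Library totals cover miRNA genes and leave out the 4 entries for unmapped, multimapping, featureless and ambiguous reads. On miRNA genes fell 46.8% of reads in replicate 1 and 45.0% in replicate 2.

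The members, lists and tests were chosen with earlier results of these data known. Genes named are the members, the 2 genes above and below each in mean CPM, the 5 largest log2 ratios per direction at a mean of at least 100 CPM, and up to 4 leading genes of a list. Genes outside this rule are marked where they appear. Log2 ratios used an offset of 0.5 reads. Fisher's exact test became an exact binomial test under TMM and DESeq2 size factors. edgeR's common dispersion came from an intercept-only model with TMM over 356 genes with at least 10 reads in each library. As it comes from the same libraries that are compared, with 1 on each side, that test gives no check against replicate spread. Python 3.11.15 ran scipy 1.17.1 and pandas 2.3.3, and DESeq2 1.42.0 and edgeR 4.0.16 ran under R 4.3.3.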

Additional observations from a re-analysis of the deposited data

How the results depend on the processing

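The log2 ratio of Mir26a-2 stayed between 3.49 and 3.75 and was called under all 6 alternatives (both-strand column, all reads as library size, TMM, DESeq2 size factors, no filter on low counts, edgeR's exact test). That of Mir26a-1 passed Fisher's counterpart under TMM and DESeq2 size factors, at 1.04 (adjusted p = 0.0260 by the exact binomial test) and 1.02 (adjusted p = 0.0265). That of Mir26b turned to -0.0093 in the both-strand column and -0.0412 with all reads as library size, and lost its call at 0.0146 both without the filter (adjusted p = 0.0675 by Fisher's exact test) and in edgeR's exact test. In the both-strand column, whose total is smaller, Mir26b stood at 24154 CPM and the family at 2.44% of reads, and per 1000000 of all reads Mir26b stood at 9710, Mir26a-1 at 2.49, Mir26a-2 at 85.4 (189 in CPM) and the family at 0.980%. Single libraries gave 21060 and 21275 CPM for Mir26b, 3.85 and 7.08 for Mir26a-1, 29.7 and 348.9 for Mir26a-2, 2.11 and 2.16% for the family, and a ratio of Mir26b to the Mir26a loci of 628 and 59.8, each in replicates 1 and 2. Called genes numbered 239, and 5 with edgeR's exact test (26 at an unadjusted p under 0.05), whose dispersion is taken from the difference between these same libraries, so its calls show nothing on replicate spread. Of 239 calls, 32.2% were higher in replicate 2, against 51.7% of 240 under TMM and 49.6% of 240 with DESeq2 size factors. No paired analysis was possible because the 2 libraries form 1 group. The 14 reads of Mir26a-1 in replicate 1 limit what can be said of it. A genome sequence was not used here, so matches outside annotated transcripts were not searched.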

Other observations

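The miR-103/107 genes, in the pantothenate kinase genes that make coenzyme A, have the same layout as miR-26, with 1 mature miRNA at a pair of loci and a close relative at another. Mir107 stood at 1828 ± 180 CPM (SD, n = 2), Mir103-2 at 14.3 ± 2.00 CPM and Mir103-1 at 2.83 ± 0.895 CPM. Mir107 thus had 109 reads in replicate 1 and 104 in replicate 2 for each read of the Mir103 loci together, whereas the same ratio for Mir26b over the Mir26a loci was 628 and 59.8. Reads of the mature miRNA shared by a pair match both its loci. These ratios are therefore those of uniquely placed reads and not of the mature miRNAs. Of the 11 listed miRNA genes in paralogous protein-coding hosts, which leave out miR-26, 6 were detected, and 9 were tested. Fisher's exact test called 2 higher (Mir128-1 and Mir128-2) and 2 lower (Mir107 and Mir218-1) in replicate 2. Over all 455 tested genes 77 were higher and 162 lower. Under TMM scaling 2 of the 9 were higher and none lower, against 124 and 116 of all genes. The median log2 ratio of the 9 was -0.26, against -0.18 over all genes tested.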
